A study of Mus musculus with 34 samples.

Results

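PDX1 peaks that lie more than 50 kb from every protein-coding gene body were examined in Beta-TC6, an established mouse cell line that makes insulin. Their centres were measured against 21887 protein-coding gene bodies of the mm10 assembly, and position alone chose them. They numbered 12366 of the 40005 PDX1 peaks that wild-type control cells had on nuclear chromosomes (30.9%, Wilson 95% interval 30.5% to 31.4%). The whole list held 40028 peaks, of which 23 were mitochondrial or on unplaced sequence and were left out. A further 18923 peaks (47.3%) were centred in a protein-coding gene body and 8716 (21.8%) lay outside one but within 50 kb. All of these intervals cover counting error only.

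The assay was ChIP-seq, in which DNA cross-linked to a protein is pulled down with an antibody and sequenced. Cells with the genotype WT or Bmal1-/- (lacking BMAL1, which drives the circadian clock together with CLOCK) received 10 µM forskolin for 1 h to align their clocks, and were left as controls or given the inflammatory cytokine IL-1β. PDX1 and p65 were precipitated in all 4 combinations, with 3 samples each, and SIN3A in WT cells with control siRNA, with 2 samples. These 9 groups hold 26 of the 34 samples. The sources used here give no dose or time of IL-1β and do not say whether the knockout line is 1 clone, and these lists offer no check of the Bmal1 deletion. The antibody label of the IL-1β PDX1 samples, in WT and Bmal1-/- cells alike, names p65 while their titles name PDX1. The titles were followed, and every value from the 2 IL-1β PDX1 lists carries that doubt.

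Each group has a single deposited peak list, in which replicates are not told apart. Differences could thus not be compared with replicate spread, and no p-value is given. The PDX1 lists rest on 60.2 M to 63.9 M tags (mapped reads) and the p65 lists on 53.5 M to 61.9 M. The authors' tag count of a peak is scaled to 10 M tags, and 1 unit of it is called a tag below. The 4 PDX1 lists differed in length and in peak width: 40028 peaks of 207 bp in wild-type control cells, 38930 of 226 bp with IL-1β, 8339 of 472 bp in knockout control cells and 8095 of 418 bp in knockout cells with IL-1β. Tag counts of different lists are thus sums over different windows. A site absent from a list is one that did not pass that list's threshold, which differed too, from 20 raw tags in wild-type control cells to 34 in knockout control cells.

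PDX1 is a homeodomain transcription factor that directs pancreas development and maintains the identity of adult β-cells. Homeodomains commonly contact a core of TAAT. Enhancers can act on a promoter across long stretches of DNA, and in mammals many factor binding sites lie in gene deserts, long intervals with no protein-coding gene. p65 (RELA) is a subunit of NF-κB that enters the nucleus after IL-1β signalling, and SIN3A is a corepressor that assembles histone deacetylases.

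Although far from protein-coding genes, 45 of the 12366 peaks were centred in the start window of a long non-coding RNA (lncRNA) gene. The windows, from RefSeq on GRCm38.p6 (the mm10 assembly), run from 250 bases before to 50 bases after a gene's start, and 46 of the 32851 windows, of 45 genes, held such a peak. They are the far peaks whose bases could be read here. Of the 45, 30 were found again in the wild-type IL-1β PDX1 list, 11 in the knockout control PDX1 list and 11 in the wild-type IL-1β p65 list. The shares over all nuclear PDX1 peaks were 60.1%, 19.1% and 19.6%. The median tag count of the 45 was 8.81, against 6.98 for all far peaks. The 6 of highest tag count are shown, to let a reader see what DNA these peaks cover. Each line is the stretch shared by the peak and the window on the gene's own strand, 5′ to 3′, and capitals mark TAAT on either strand (TAAT or ATTA).

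Gm38673: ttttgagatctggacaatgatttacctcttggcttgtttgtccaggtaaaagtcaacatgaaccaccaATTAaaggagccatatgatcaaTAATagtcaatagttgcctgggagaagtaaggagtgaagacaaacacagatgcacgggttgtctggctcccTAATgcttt
Rps18-ps4: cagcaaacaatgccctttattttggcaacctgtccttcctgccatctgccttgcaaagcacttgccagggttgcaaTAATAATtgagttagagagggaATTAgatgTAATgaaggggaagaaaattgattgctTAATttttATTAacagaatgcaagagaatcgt
Gm32359: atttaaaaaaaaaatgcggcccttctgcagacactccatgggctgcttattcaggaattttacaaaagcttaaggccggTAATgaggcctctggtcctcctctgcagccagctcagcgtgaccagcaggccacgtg
Gm32123: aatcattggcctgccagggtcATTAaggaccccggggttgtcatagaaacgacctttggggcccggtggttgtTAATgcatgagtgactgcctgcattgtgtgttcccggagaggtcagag
Gm52192: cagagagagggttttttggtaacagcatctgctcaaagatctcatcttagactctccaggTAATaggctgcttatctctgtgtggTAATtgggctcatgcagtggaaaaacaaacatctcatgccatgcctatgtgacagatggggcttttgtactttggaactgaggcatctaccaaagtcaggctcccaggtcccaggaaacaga
Gm30604: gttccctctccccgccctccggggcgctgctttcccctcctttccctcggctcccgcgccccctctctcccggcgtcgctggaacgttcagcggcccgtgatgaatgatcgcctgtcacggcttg

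The first is chr1:80428050-80428219 on the plus strand, at the start of Gm38673 and between Cul3 and Dock10. Its peak had 65.1 tags in wild-type control cells, 56.2 with IL-1β, 48.6 in knockout control cells and 36 in knockout cells with IL-1β. The second is chr13:97750862-97751026, plus strand, at Rps18-ps4 between Enc1 and Arhgef28, where the tag count was 44.4 in wild-type control cells and 62.3 with IL-1β, and p65 had 28 tags with IL-1β. The third is chr9:34029849-34029984, minus strand, at Gm32359, 456 kb from the nearest protein-coding gene (43 tags, and 43.7 with IL-1β). Those of Gm32123 (chr14:25109011-25109131, plus strand, 31.6 tags), Gm52192 (chr15:3215250-3215456, plus strand, 27.1 tags) and Gm30604 (chr5:118380869-118380993, minus strand, 24.6 tags) follow. All 6 were found in the IL-1β and knockout control PDX1 lists of the same sites, and p65 with IL-1β was listed at those of Rps18-ps4 and Gm32359. The stretch of Rps18-ps4 held 6 TAAT cores and that of Gm30604 held 0. TAAT on either strand occurred in 44 of the 46 windows with a far peak (95.7%), in 69.5% of the 11588 windows of lncRNA genes and in 58.0% of all 32851 windows. These shares are over whole windows and not over the peak stretches. The lncRNA windows were not limited to those far from protein-coding genes, so the shares are not of like windows. A match of 4 letters is a description of the sequence and not a binding site.

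Far peaks reached deep into gene deserts. The distance of a peak centre to the nearest protein-coding gene body had a median of 212 kb, with quartiles of 105 kb and 440 kb and a maximum of 2267 kb. By distance, 2869 peaks lay at 50 to 100 kb, 3062 at 100 to 200 kb, 3752 at 200 to 500 kb, 1866 at 500 to 1000 kb and 817 beyond 1000 kb. The farthest was chr14:90738580-90738786, between the protocadherin genes Pcdh20 and Pcdh9. It had 6.65 tags and was in no other PDX1 or p65 list. Of the 5 farthest peaks, 4 lay on chromosome 14, with 5.82 to 10.8 tags. The fifth, on chromosome 18 between Celf4 and Pik3c3 and 2238 kb from the nearer of them, had 13.3 tags and was the only one of the 5 in the knockout control PDX1 list, at 11.9 tags. The members nearest to the 50 kb limit were at 50.011 kb (beside Lmo7, 37.1 tags), 50.02 kb (Rbbp7, 3.49 tags) and 50.025 kb (Prr16, 3.99 tags). The nearest peaks that missed it were at 49.987 kb (Tcim, 9.31 tags), 49.974 kb (Man2a1, 3.99 tags) and 49.973 kb (Rnf32, 14 tags).

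PDX1 peaks were less dense far from genes than inside them, but not sparse. Between the first and last gene of each chromosome, the sequence more than 50 kb from a gene came to 941 Mb, 36.2% of the length, and held 13.1 PDX1 peaks per Mb. Gene bodies held 18.4 per Mb, and the sequence outside them but within 50 kb held 13.8. For the tenth of peaks with the most tags the 3 densities were 1.18, 1.94 and 1.41 per Mb. Assembly gaps and unmappable repeats were not subtracted, and their part in these densities was not tested. The far share differed between chromosomes, from 16.9% of the PDX1 peaks on chromosome 11 to 40.6% on chromosome 14.

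Far peaks had slightly fewer tags than the others. Their median tag count was 6.98 (quartiles 4.65 and 13, maximum 199.1). It was 8.64 for peaks in gene bodies and 8.31 for peaks outside them but within 50 kb. The median was lower in each more distant class, at 8.14 for 50 to 100 kb, then 7.31, 7.15 and 5.82, and 5.48 beyond 1000 kb. Input tags moved with position as well: a far peak held a median of 2 input tags and the other peaks 3, and 37.5% of far peaks had at most 1 input tag against 27.1% of the others. The median fold over input was accordingly higher at far peaks, 10.07 against 9.11. The part of the input in these differences was not tested.

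**Figure D1:**
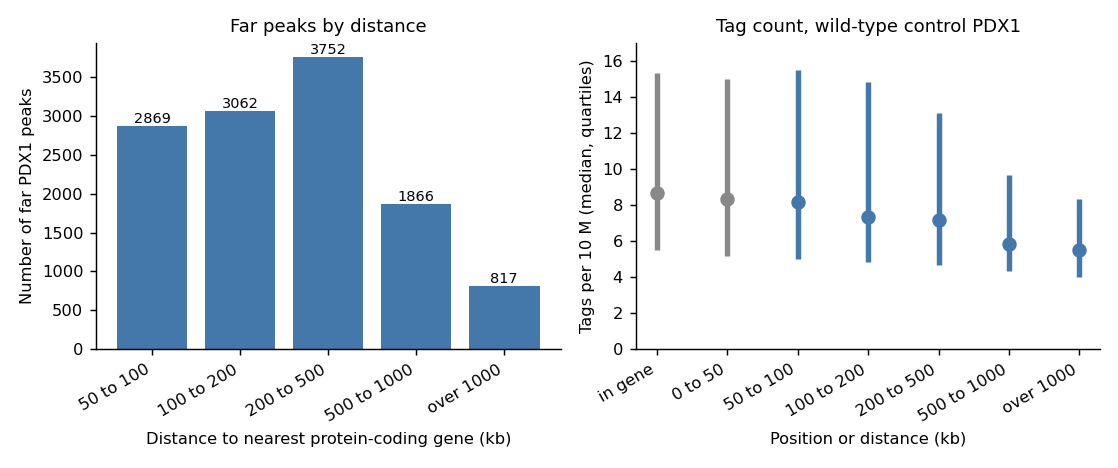
Left, number of far PDX1 peaks by distance of the peak centre to the nearest protein-coding gene body in kb, with 3752 in the class from 200 to 500 kb and 817 beyond 1000 kb. Right, tag count per 10 M tags in the wild-type control PDX1 list (dots, medians; bars, quartiles) for peaks in genes and peaks within 50 kb (grey) and for the far classes (blue), whose median goes from 8.14 to 5.48.

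The strongest far peaks were among the strongest of the whole list. The first was chr5:119062447-119062653, 297 kb from Med13l, a Mediator subunit gene, on the side of Tbx3, a T-box factor gene. This peak lay in a non-coding gene, Gm30895. It ranked 2 among all nuclear peaks, with 199.1 tags in wild-type control cells, 221.8 with IL-1β, 105.9 in knockout control cells and 67.3 in knockout cells with IL-1β. p65 was also listed there, with 46.3 tags in wild-type control cells, 34 with IL-1β and 16.8 in knockout cells with IL-1β. PDX1 was thus highest in the wild-type lists and p65 was listed at the site even without IL-1β. The second was chr4:124395670-124395876, 262 kb from Pou3f1, a POU homeodomain factor gene. It had 176.8 tags, 184.4 with IL-1β, 63.9 in knockout control cells and 49.6 in knockout cells with IL-1β. At chr14:68355619-68355825, between the neurofilament gene Nefm and Adam7, the values were 165.7, 209.5, 102.8 and 83.9 tags, and p65 had 28.6 tags in the wild-type control list and 58.1 in the IL-1β list. The peak at chr12:38941960-38942166, 71.6 kb from Etv1, an ETS factor gene, had 143.6, 165.3, 101.7 and 78.2 PDX1 tags and was in all 4 p65 lists. The fifth, chr10:9087108-9087314 between Sash1 and Samd5, had 139.2, 165.2, 46.4 and 49 PDX1 tags. These 5 are also the strongest far peaks that overlapped a p65 peak of IL-1β-treated wild-type cells.

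All 20 far peaks of highest tag count were in all 4 PDX1 lists. Over all nuclear peaks, 11.3% were in all 3 other PDX1 lists. In the highest of 10 tag bins, the wild-type IL-1β, knockout control and knockout IL-1β lists held 98.9%, 79.4% and 75.7% of far peaks. They held 98.997%, 77.9% and 74.2% of the other peaks of that bin. The 20 had a median tag count of 117.4 (97 to 199.1) in wild-type control cells and 134.05 (104.9 to 221.8) with IL-1β. In knockout cells it was 65.6 (16 to 106.4) without and 51.25 (16.6 to 96.6) with IL-1β. Every one of the 20 had more tags in the wild-type IL-1β list, whose windows are slightly wider, than in the control list. Each also had fewer tags in both knockout lists, whose windows are much wider. The 20 were picked for their wild-type control tag count. A smaller share of tags fell in peaks in the knockout lists (1.64% and 1.29%) than in the wild-type lists (5.001% and 5.55%). The part of either in the lower knockout values was not tested. The smallest knockout values of the 20 belonged to chr8:123752179-123752385, between Rhou and Rab4a, with 97 tags in wild-type control cells and 16 in knockout control cells. The values closest between the genotypes were at chr5:97167786-97167992 between Paqr3 and Naa11, with 118.3 and 104.5 tags. Of the 20, 16 overlapped a p65 peak in wild-type control cells and 19 with IL-1β, and 1 overlapped a SIN3A peak, near Cd180. The shares over all nuclear peaks were 4.37%, 19.6% and 2.24%. Overlap with p65 rose with the PDX1 tag count at far and other peaks alike. In the highest of 10 tag bins it was 27.5% and 23.6% in wild-type control cells, and 60.3% and 56.9% with IL-1β. The exception among the 20 to p65 with IL-1β was chr8:26747533-26747739 near Zfp703, with 128 PDX1 tags and a p65 peak of 15.8 tags in control cells.

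**Figure D2:**
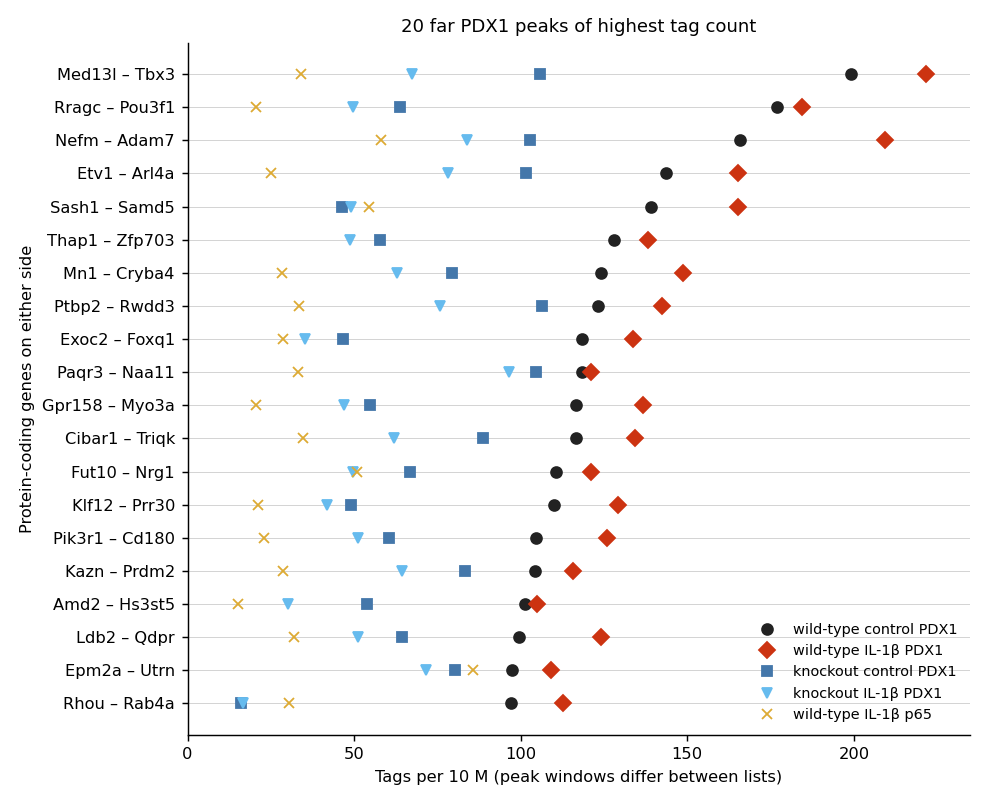
Tags per 10 M tags (x axis) at the 20 far PDX1 peaks of highest tag count, named by the protein-coding genes on either side (y axis), in the 4 PDX1 lists and the wild-type IL-1β p65 list. Wild-type IL-1β values (diamonds) lie right of the control values (dots) at all 20 sites, and knockout values (squares and triangles) lie left of them. The sites were picked by their wild-type control values.

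Most far PDX1 sites were listed with IL-1β as well. Of the 12366, 7313 (59.1%, 58.3% to 60.001%) overlapped a PDX1 peak of IL-1β-treated wild-type cells by at least 1 bp, beside 60.1% of all 40005 nuclear peaks and 60.5% of the 27639 peaks that were not far. The crude difference was −1.37 percentage points (Newcombe 95% interval −2.41 to −0.33). Retention depended steeply on the tag count, so the other peaks were reweighted to the far peaks' tag counts over 10 bins. They then came to 54.5%, and far peaks were retained more often by 4.59 percentage points (3.71 to 5.48). This reweighted difference was positive on all 20 chromosomes. It was 4.12 points (3.24 to 5.01) when input tags were matched as well. The gap sat in the middle bins. Far peaks of 6.65 to 8.14 tags were retained in 62.8% of cases against 53.6% of the others, and those of 8.14 to 9.97 tags in 71.8% against 60.8%. In the lowest bin the shares were 18.4% and 17.8%, and in the highest, above 25.6 tags, 98.9% and 98.997%.

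**Figure D3:**
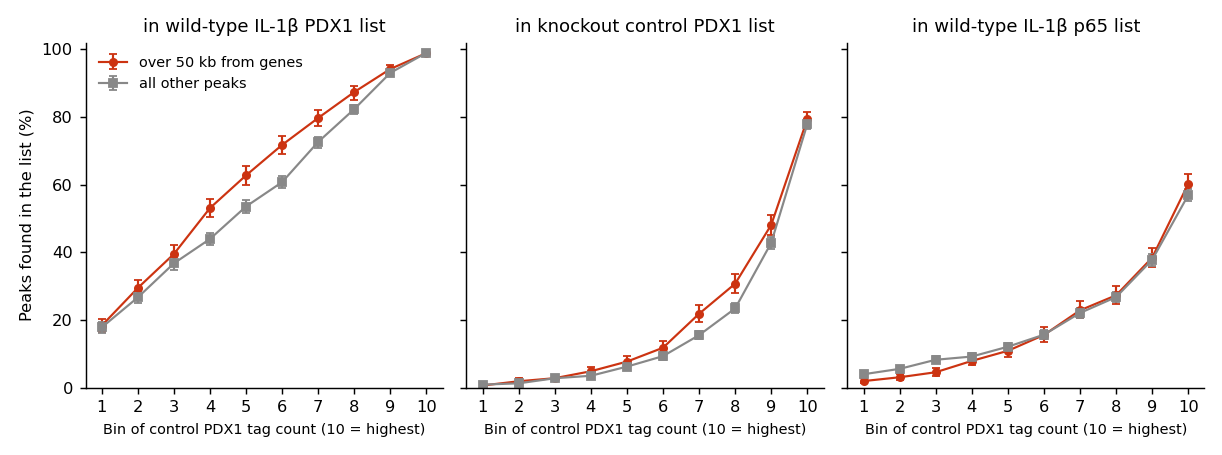
Percent of wild-type control PDX1 peaks found in 3 other lists (y axis) by bin of tag count, 1 the lowest and 10 the highest (x axis), for far peaks (red) and all other peaks (grey), with Wilson 95% intervals. In the wild-type IL-1β PDX1 list the far peaks lie above the others in the middle bins, 71.8% against 60.8% in bin 6, and the curves meet in bin 10.

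Retention was lower farther from genes, as the tag count was. It was 62.7% at 50 to 100 kb, 62.1% at 100 to 200 kb, 60.1% at 200 to 500 kb, 52.0% at 500 to 1000 kb and 47.6% beyond 1000 kb. Against other peaks of the same tag counts, each distance class was nevertheless higher, by 4.09, 5.26, 4.93, 4.20 and 3.18 percentage points.

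The strongest far peak missing from the wild-type IL-1β list was chr4:13460585-13460791, 282 kb from Runx1t1, a corepressor gene, with 39.5 tags in wild-type control cells. It was listed in both knockout PDX1 lists, at 47.7 tags in control cells and 27.9 with IL-1β. The next were beside Camk2n1 (36.9 tags), Snx10 (36.6), Reep3 (32.4) and Trib2 (32.1). All 5 were listed in knockout control cells, with 18.3 to 47.7 tags, so each had a PDX1 peak in a second genotype. That list held 79.4% of far peaks and 77.9% of the others in the highest tag bin, above 25.6 tags. The peak beside Trib2 had 5.79 p65 tags in IL-1β-treated wild-type cells and the other 4 had no p65 peak there.

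Fewer of the sites were found in Bmal1-/- cells. The knockout control PDX1 list held 2293 of the far peaks (18.5%, 17.9% to 19.2%), beside 19.1% of all nuclear peaks, and the knockout IL-1β PDX1 list held 2119 (17.1%, 16.5% to 17.8%), beside 17.7%. Both knockout lists are short as a whole. Only 1.64% and 1.29% of their tags fell in peaks, against 5.001% and 5.55% in the wild-type lists, so a lower yield of the precipitation and weaker binding cannot be told apart. When each pair of lists was limited to the length of the shorter by tag count, 63.1% of the remaining far peaks were in the knockout control list. The values were 58.5% for the knockout IL-1β and 60.9% for the wild-type IL-1β list. The short knockout lists leave only the strongest far peaks, so these shares are not of like peaks. Of far peaks in the highest tag bin, above 25.6 tags, 79.4% were in the knockout control list. The knockout IL-1β list held 75.7% of them and the wild-type IL-1β list 98.9%. A limit of 8-fold over input was also set, on the far peaks and on the peaks of every other list. The shares in the knockout control, knockout IL-1β and wild-type IL-1β lists were then 8.83%, 8.32% and 40.4%. At equal tag count, far peaks were found more often than other peaks in the control list, by 2.26 percentage points (1.63 to 2.89, positive on 20 of 20 chromosomes). In the IL-1β list the difference was 1.89 points (1.27 to 2.52, positive on 18 of 20). The far peaks found in knockout control cells were the strong ones, with a median of 21.1 tags in wild-type control cells and 16.6 tags in the knockout list.

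Sorting the far peaks by the PDX1 lists that held them gave 3 large groups. No other PDX1 list held 4784 of them (38.7%), with a median of 4.65 tags. The wild-type IL-1β list alone held another 4601 (37.2%), with a median of 7.64 tags. Among peaks that were not far these shares were 37.2% and 37.3%. All 3 other PDX1 lists held 1379 (11.2%, 10.6% to 11.7%), beside 11.3% of all nuclear peaks, with a median of 26.9 tags. Of these 1379 shared sites 51.8% also overlapped a p65 peak of IL-1β-treated wild-type cells, against 2.65% of the 4784. The same classes gave 52.8% and 4.72% among peaks that were not far, so the pattern is not limited to far peaks.

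The strongest far peak missing from the knockout control list was chr17:83050822-83051028, 164 kb from Pkdcc, with 56 tags in wild-type control cells and 78 with IL-1β. It reappeared at 14.4 tags in knockout cells with IL-1β, and p65 had 49.7 tags there in wild-type and 12 in knockout cells with IL-1β. A pair of peaks in the gap between Tex29 and A230072I06Rik had 52 and 51.7 tags, and 60.2 and 52.8 with IL-1β. The remaining ones lay between Serp2 and Lacc1 (49.4 tags, and 48.6 with IL-1β) and between Saraf and Dusp4 (48.4 and 59.6). All 5 were in the wild-type IL-1β PDX1 list and 4 of them in the knockout IL-1β list.

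p65 was found at 539 far peaks in wild-type control cells (4.36%, 4.01% to 4.73%), beside 4.37% of all nuclear PDX1 peaks. With IL-1β it was found at 2135 (17.3%, 16.6% to 17.9%), beside 19.6%. In Bmal1-/- cells the counts were 14 without IL-1β (0.113%), beside 0.127%, and 1172 with IL-1β (9.48%, 8.97% to 10.0%), beside 11.3%. The p65 lists themselves hold 3157, 31389, 173 and 16162 peaks in that order. With pairs of lists limited to equal length, the shares were 29.6%, 22.9%, 8.70% and 22.5%. Each pair keeps a different set of far peaks, so these shares cannot be set against one another. Among far peaks of the highest tag bin, above 25.6 tags, 27.5% had p65 in wild-type control cells and 60.3% with IL-1β. The limit of 8-fold over input was set on far peaks and p65 peaks alike. The shares, in the same order of lists, were then 2.44%, 9.48%, 0.0126% and 5.41%. In total 2634 far peaks (21.3%) were in at least 1 p65 list, against 25.4% of the peaks that were not far. Of the 539 sites of control cells, 321 (59.6%) were also p65 sites with IL-1β, against 60.9% of such sites that were not far. Of the 2135 sites with IL-1β, 859 (40.2%) were p65 sites in knockout cells with IL-1β, and 1984 (92.9%) were in the IL-1β PDX1 list. Sites that were not far gave 42.5% and 90.3%.

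p65 was listed least often at the most distant sites. The share of far peaks with p65 in IL-1β-treated wild-type cells was 21.6% at 50 to 100 kb, 19.99% at 100 to 200 kb, 17.3% at 200 to 500 kb, 10.7% at 500 to 1000 kb and 6.73% beyond 1000 kb. Other peaks of the same tag counts stood at 20.2%, 19.3%, 18.4%, 14.4% and 12.7%. The difference was 1.40 percentage points (−0.03 to 2.84) in the nearest class, −1.13 (−2.27 to 0.02) at 200 to 500 kb, −3.70 (−4.97 to −2.44) at 500 to 1000 kb and −5.93 (−7.47 to −4.38) beyond 1000 kb. Knockout cells with IL-1β gave the same order, from 13.0% at 50 to 100 kb to 2.33% beyond 1000 kb, the latter against 6.77% of other peaks. Over all far peaks the difference at equal tag count was small, −0.79 points (−1.51 to −0.08) in wild-type and −1.06 (−1.63 to −0.50) in knockout cells. The wild-type value was negative on 12 of 20 chromosomes, and turned to 0.53 with a limit of 20 kb and to 0.30 with peaks of at least 8-fold over input. Beyond 500 kb, PDX1 retention was thus above, and p65 overlap with IL-1β below, that of other peaks of equal tag count. For p65 in wild-type control cells the difference over all far peaks was 0.63 points (0.24 to 1.01, positive on 17 of 20 chromosomes). It was −0.06 points (−0.72 to 0.60) at 500 to 1000 kb. It was 0.08 points (−0.80 to 0.97) beyond 1000 kb.

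**Figure D4:**
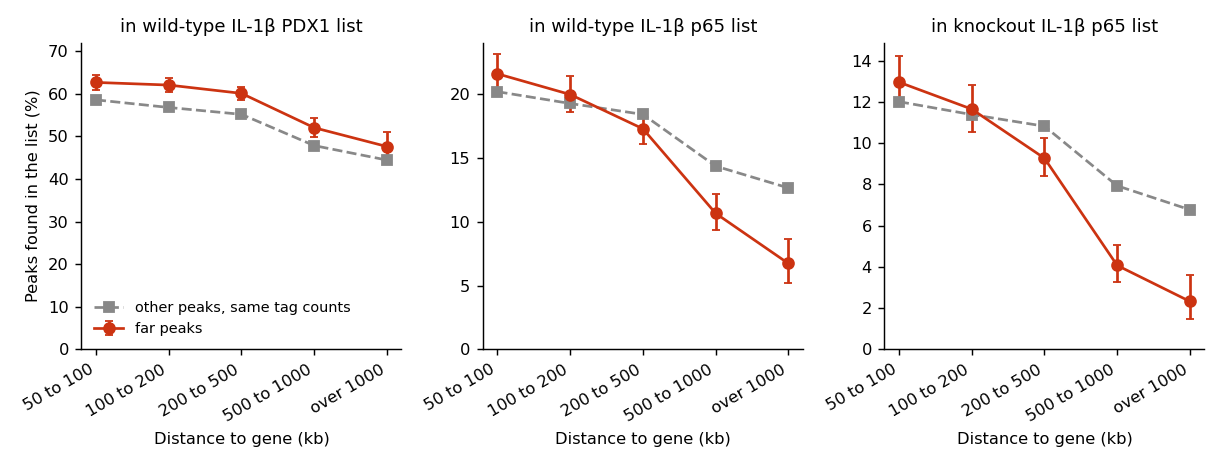
Percent of far PDX1 peaks found in 3 IL-1β lists (red, Wilson 95% intervals) by distance class in kb, and of all other peaks reweighted to the same tag counts (grey). Far peaks lie above the grey line for PDX1 in every class and below it for p65 from 200 kb on, reaching 6.73% against 12.7% in wild-type cells.

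The far sites of highest p65 signal were not those of highest PDX1 signal. These were picked after their values were seen. At chr14:76698998-76699204 near Serp2, p65 had 282.6 tags with IL-1β and no listed peak without it. PDX1 there had 22.3 tags in wild-type control cells and 64.9 with IL-1β, and in knockout cells it was listed with IL-1β only, at 26.4. At chr1:23268431-23268637 near Ogfrl1, p65 had 15.1 tags in control cells and 272.5 with IL-1β, and PDX1 had 7.48 and 23.6. The peak near Hdgfl1, 688 kb from that gene at chr13:26080516-26080722, had 270.3 p65 tags with IL-1β, and its PDX1 count was 48.5 in control cells and 82.7 with IL-1β. Peaks near Rybp, a Polycomb component gene, and Btg1, an antiproliferative gene, had 266.9 and 255.2 p65 tags with IL-1β. All 5 had p65 peaks in knockout cells with IL-1β, of 100.4 to 123.4 tags, and at all 5 the PDX1 count was higher in the IL-1β list.

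PDX1 tag counts with IL-1β were graded by p65. Of the far peaks without p65 in IL-1β-treated wild-type cells, 52.1% were in the IL-1β PDX1 list. Of those in the lowest to the highest of 4 bins of p65 tags, 89.7%, 92.9%, 94.2% and 94.9% were. Control PDX1 tags moved with these shares, with medians of 6.15 without p65 and 10.5, 17.4, 21.9 and 25.2 in the bins, and their part was not tested. Peaks that were not far gave 52.8% without p65 and 88.2%, 90.9%, 91.2% and 90.8% in their bins. Among peaks in both wild-type PDX1 lists the median tag count without p65 was 8.81 in control cells and 9.07 with IL-1β. In the 4 p65 bins it went from 11.1 to 12.1, from 18.35 to 20.8, from 23 to 27.4 and from 27.4 to 38.2. The median ratio of IL-1β to control tags was 1.03 without p65 and 1.08, 1.12, 1.16 and 1.31 in the bins. The IL-1β value was the higher in 55.0% of peaks without p65 and in 95.1% of those in the top bin. Peaks that were not far gave ratios of 1.06 without p65 and 1.34 in their own top bin, so the grading was also present nearer to genes. Far peaks in both knockout PDX1 lists were sorted by the same p65 bins of wild-type cells. Their median ratio of IL-1β to control PDX1 tags was 0.78 without p65, 0.76, 0.75 and 0.76 in the lower 3 bins and 0.88 in the top bin. The knockout windows are 472 bp wide without and 418 bp with IL-1β, while the wild-type windows are 207 and 226 bp. The part of window width in these ratios was not tested. The IL-1β PDX1 samples are the ones whose antibody label names p65, and the part of that in the grading was not tested.

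**Figure D5:**
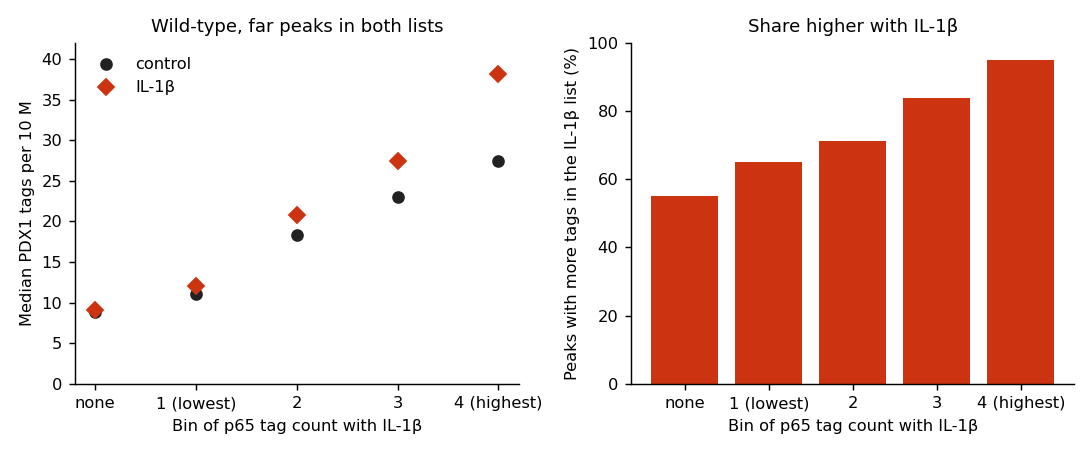
Far PDX1 peaks found in both wild-type PDX1 lists, by bin of p65 tag count in IL-1β-treated wild-type cells (x axis). Left, median PDX1 tags per 10 M tags in control (dots) and IL-1β (diamonds) lists, 27.4 and 38.2 in the top bin. Right, percent of those peaks with more tags in the IL-1β list, from 55.0% without p65 to 95.1%.

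SIN3A was rare at far PDX1 peaks. The list from wild-type cells with control siRNA overlapped 87 of them (0.704%, 0.571% to 0.867%), beside 2.24% of all nuclear peaks and 2.93% of those that were not far. At equal tag count the difference was −1.88 percentage points (−2.11 to −1.65) and was negative on all 20 chromosomes. Within the far peaks the share went from 1.60% at 50 to 100 kb to 0.107% at 500 to 1000 kb.

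By the rule that chose them, far peaks lie in gaps of more than 100 kb between genes or at chromosome ends. Of 2768 gaps of more than 100 kb between neighbouring protein-coding genes, 1637 (59.1%) held at least 1. The 400 gaps with 10 or more held 8397 of the 12366. The largest number, 90, lay in the 4542 kb between Pcdh20 and Pcdh9, which is 20.3 per Mb of its sequence beyond 50 kb from a gene beside 13.1 over all such sequence, with a median of 6.73 tags and a highest value of 50.2. Next came the gaps Olfm4 to Pcdh17 (87 peaks), Hace1 to Grik2 (75), D3Ertd751e to Pcdh10 (70), Nmbr to Cited2 (68) and Trim52 to Slitrk1 (67). The gaps Cdh6 to Cdh9 and Tenm3 to Aga held 66 each, Pabpc4l to Pcdh18 held 64, and Slc10a2 to Efnb2 held 63, as did Got2 to Cdh8. The 10 listed before Got2 to Cdh8 held 716 far peaks (5.79%). Of those 48.6% were found in the wild-type IL-1β PDX1 list, 12.6% in the knockout control PDX1 list and 7.68% in the wild-type IL-1β p65 list, below the 59.1%, 18.5% and 17.3% of all far peaks. Nmbr to Cited2 had a median of 13.25 tags, with 61.8% found with IL-1β and 17.6% with p65, and Got2 to Cdh8 had 5.65 tags, 50.8% and 17.5%.

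Genes of the fixed lists were described by whether they were the nearest gene of a far peak. Of 4534 protein-coding genes that border a gap of more than 100 kb or a chromosome end, 51.2% were the nearest gene of at least 1 far peak. Of 32 β-cell transcription factor genes, 19 border such a gap and 14 were nearest to a far peak, with 87 peaks in all. Nkx6-1, a homeodomain factor of mature β-cells, had 11 far peaks. The strongest, chr5:101497215-101497421 at 162 kb, had 86.4 tags in wild-type control cells, 99.4 with IL-1β, 63.1 in knockout control cells and 40.4 in knockout cells with IL-1β. Etv1 had 15, Meis2, a TALE homeodomain factor, 12, and Isl1 and Foxa2 11 each. The strongest near Neurod1 had 22.9 tags and that near Pax6 had 20.4, both near their values with IL-1β of 23 and 21.9.

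Among 30 genes of insulin, its processing and its secretion, 10 border such a gap and 8 were nearest to a far peak. Ins1, an insulin gene, had 28 far peaks, of at most 25.1 tags, and 18 of them were found with IL-1β. Ins2 had 2, of at most 7.15 tags, and neither was found in the wild-type IL-1β PDX1 list. Scg2, a granule protein gene, had 10, the strongest of 66.5 tags at 253 kb and of 83.1 tags with IL-1β. Pcsk2, a prohormone convertase gene, and Slc30a8, the zinc transporter gene of insulin granules, had 8 each. Of 12 other islet endocrine genes 6 border such a gap and all 6 were nearest to a far peak, Etv1 among them. Sst, the somatostatin gene, had 3, the strongest of 83.6 tags at 55.7 kb and of 90.7 tags with IL-1β. The strongest of 13 near Irx2 had 26.4 tags and was not in the wild-type IL-1β PDX1 list, and p65 had 27.3 tags there with IL-1β. Both knockout PDX1 lists held this site, at 34.4 tags in control cells and 22.1 with IL-1β.

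Clock and inflammatory genes were counted in the same way, beside the 4534 of 21887 protein-coding genes that border a gap or a chromosome end. Of 23 core clock genes 8 border such a gap and 5 were nearest to a far peak, with 12 peaks in all, 7 of them near Rora. The strongest near Rora had 31.2 tags and 24.9 with IL-1β, and that near Cry1 had 17.9 and 24.6. For NF-κB pathway and target genes, 6 of 32 border a gap and 4 were nearest to a far peak. Tnfaip3, an NF-κB inhibitor, had 5, the strongest of 47.2 tags in wild-type control cells, 49.5 with IL-1β and 20.4 in knockout control cells, and 15.5 p65 tags with IL-1β. Nfkbiz and Cyld had far peaks with 15.3 and 44.5 p65 tags with IL-1β. Among 19 cytokine and chemokine genes, 5 border a gap and only Il15 was nearest to a far peak. All 30 listed genes of neuronal adhesion and synapses border such a gap, and 28 were nearest to a far peak, with 558 peaks in all. Near Ncam2 the strongest of 42 had 45.9 tags, 73 with IL-1β, and 143.6 p65 tags with IL-1β. Of 20 genes that mark other lineages only Ptprc borders such a gap, and it was nearest to 14 far peaks. The nearest gene is a matter of position, and no expression was measured here.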

How the data were processed

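Values came from 9 deposited peak lists, 1 per group. Each was called by the authors with HOMER findPeaks in its factor style, per the file headers, with tags of 1 precipitate set against those of 1 input, at a false discovery rate of 0.001, 4-fold over input and 4-fold over the local 10 kb. PDX1 and p65 lists of a condition used the same input. Whether replicates were pooled is not given in the sources used here. Bowtie2 and mm10 are named in the submitters' processing notes. The signal of a peak, its tag count, is, per the file headers, scaled by the authors to 10 M tags. The score is the authors' HOMER score and served in 1 alternative binning. The fold over input is the authors' deposited ratio of immunoprecipitated to input tags. Input tags are the deposited signal of the input in the peak. The SIN3A list with Pdx1 siRNA was not used here.

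Distances were computed from peak centres to RefSeq gene bodies of GRCm38.p6 (Python 3.11.15, pandas 2.3.3, numpy 2.4.6). Sites were shared where peaks overlapped by at least 1 bp. Shares have Wilson and their differences Newcombe 95% intervals. Reweighted differences average over 10 bins of tag count with the far peaks' weights, and the step was tested on simulated data. The 8 gene lists hold 197 genes. The members, the lists and the comparisons were chosen with earlier results of these data known. Peaks named were the 20 strongest, the 5 farthest, the 5 strongest missing from the wild-type IL-1β and the knockout control PDX1 lists, the 5 strongest with p65 and 3 on each side of the 50 kb limit. Gaps named were the 10 with the most far peaks, and genes named were those flanking these peaks and gaps and list members nearest to a far peak. Other peaks named were chosen after their values were seen. Some list members and peaks are not reported here.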

Additional observations from a re-analysis of the deposited data

How the results depend on the processing

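At equal tag count, the higher retention of far peaks in the wild-type IL-1β PDX1 list held in all 13 settings, from 3.47 to 5.02 percentage points, and the knockout control PDX1 difference in all 12, from 1.71 to 3.30. SIN3A was lower at far peaks in all 13. Differences whose interval came to include 0 were wild-type IL-1β p65 at −0.58 (reciprocal overlap of 50%), −0.56 (centres within 100 bp), −0.25 (lists of equal length) and −0.70 (input tags matched, an alternative chosen after seeing the data). For wild-type control p65, with a main value of 0.63, they were 3.08 (equal length), 0.49 (all genes) and 0.24 (input matched). For knockout IL-1β PDX1 the value was 1.85 and for knockout IL-1β p65 −0.64 (both equal length). The wild-type IL-1β p65 difference reversed to 0.53 with a 20 kb limit and to 0.30 at 8-fold over input. The causes were not tested.

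Shares below follow the order wild-type IL-1β PDX1, knockout control PDX1, knockout IL-1β PDX1, wild-type control p65, wild-type IL-1β p65, knockout IL-1β p65 and SIN3A. With peaks of at least 8-fold over input there were 7952 far peaks (33.2%, median 7.23 tags), with shares of 40.4%, 8.83%, 8.32%, 2.44%, 9.48%, 5.41% and 0.377%, and 0.0126% for knockout control p65. This limit was set on the other lists as well, so those lists were shorter too. Counting non-coding genes left 4994 far peaks (12.5%, median 6.15), with 55.6%, 16.3%, 14.6%, 3.604%, 13.6%, 6.43% and 0.380%. Centres within 100 bp gave 51.6%, 16.0%, 14.8%, 3.59%, 12.6%, 6.91% and 0.453%. Lists cut to equal length gave 60.9%, 63.1%, 58.5%, 29.6%, 22.9%, 22.5% and 2.04%, and 8.70% for knockout control p65. Each pair then keeps a different set of far peaks, so these shares are not of like peaks. Beyond 100 kb there were 23.7% of peaks (median 6.65), with 58.1%, 17.7%, 16.4%, 16.0% (wild-type IL-1β p65), 8.42% and 0.432%. Beyond 20 kb there were 39.2%, with 18.7% (wild-type IL-1β p65), 10.2% and 1.04%. Reciprocal overlap gave 52.1% (wild-type IL-1β PDX1), 3.64%, 12.8%, 7.05% and 0.461%, and could give no value for knockout PDX1 and knockout control p65, whose peaks are 472, 418 and 479 bp wide against 207 bp. No paired analysis was possible because the lists hold no value per replicate. Leaving out replicates was not run for the same reason.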

Other observations

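Non-coding genes held a part of the far peaks. Of the 12366, 1810 (14.6%) were centred inside a gene that RefSeq does not list as protein-coding, 1730 of them in an lncRNA gene. Those 1810 had a median of 7.98 tags, and 63.8% were in the wild-type IL-1β PDX1 list, against 58.3% of the 10556 in no annotated gene, whose median was 6.81 tags. p65 with IL-1β overlapped 21.0% of the first and 16.6% of the second. The most, 17, lay in Gm32647, an lncRNA gene of 1284 kb on chromosome 7, where 10 were found with IL-1β. The differing tag counts go along with these shares, and their part was not tested.

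Far peaks were also somewhat more isolated. The nearest other PDX1 peak was at a median of 18.6 kb, against 15.7 kb for peaks in gene bodies and 17.7 kb for those outside within 50 kb, and it lay within 12.5 kb for 36.0%, 40.9% and 37.9%. The longest run of far peaks with neighbours closer than that held 9, over 64.7 kb between Zfp608 and Gramd3, of which 5 were found with IL-1β. A run of 6 between Mki67 and Mgmt had a median of 29.4 tags, and all 6 were in the wild-type IL-1β PDX1 list and 4 in the knockout control list.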
